A study of Homo sapiens with 11 samples.

Results

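The genes described here carry pyruvate, citrate, glutamate and aspartate into and around the tricarboxylic acid (TCA) cycle. They were listed by gene name and function, with earlier results of these data already known. The list held 34 genes, each was found once among the 45965 genes of the deposited table, and all 34 passed the filter on low counts, which left 16324 genes for testing. By role, 8 carry pyruvate into the mitochondrion and turn it into acetyl-CoA or oxaloacetate, 5 are the kinases and phosphatases that set the activity of the pyruvate dehydrogenase complex, 8 make, move or oxidise citrate and isocitrate, 7 lead from 2-oxoglutarate to oxaloacetate, and 6 are enzymes that interconvert malate, glutamate and aspartate with the acids of the cycle, in the cytosol or the mitochondrion.

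In the TCA cycle, acetyl-CoA from pyruvate joins oxaloacetate to form citrate, which is oxidised stepwise back to oxaloacetate while electrons pass to NADH and FADH2. Pyruvate dehydrogenase is the gate for carbon from glucose: its kinases switch it off by phosphorylation and its phosphatases switch it on. In proliferating tumour cells the cycle also supplies citrate for lipid synthesis and aspartate for nucleotides, and glutamine carbon enters it as 2-oxoglutarate through glutamate.

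The 3′ ends of mRNAs were sequenced as tags in H1299 cells, a human lung carcinoma line known to make no p53 of its own. The series compared 2 hotspot mutants of p53, R273H and R175H, each on both forms of the common codon 72 polymorphism, arginine (R72) and proline (P72). There were 1 R273H R72, 4 R273H P72, 3 R175H R72 and 3 R175H P72 libraries. Cells of all 4 groups had received 5 µg of construct DNA with Fugene and 14 days of neomycin at 800 µg per ml, and the stable lines that resulted were called isogenic. Which promoter drove the constructs, whether a line was a clone or a pool, and whether replicates were separate cultures is not stated in the labels. The p-values below thus reflect library-to-library spread alone, and that spread may be technical. The labels assign R273H P72 replicates 2, 3 and 4 and replicate 1 of R175H R72 to batch b1, and the other 7 libraries to batch b2.

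Library totals lay between 8346926 and 12829560 estimated counts, 19540 to 20489 genes had a count, and mitochondrially encoded genes took 4.03% to 5.52% of the total. VIM, KRT8, KRT18 and CDH2, which H1299 cells express, summed to 2177 to 3114 CPM, the estimated counts scaled to a common library size. CDH1, NKX2-1 and SFTPB, which they do not, summed to at most 2.22 CPM. Markers of fibroblasts, leukocytes, endothelium and hepatocytes summed to at most 6.57 CPM per list in any library, with COL1A2, LUM, CD3E, CDH5 and ALB at 0. The counts behind single members ran from 13 in the shallowest case, PDK3, to 5579, MDH2, in 1 library. In these bulk libraries a smaller number of cells with a transcript and less of it per cell cannot be told apart.

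The clearest differences lay between the 2 hotspot mutants on P72. IDH1, the cytosolic isocitrate dehydrogenase, PDK2, a kinase that inhibits pyruvate dehydrogenase, and DLST, the succinyl-transferring subunit of 2-oxoglutarate dehydrogenase, were 1.65-fold, 1.70-fold and 1.47-fold lower in R273H P72 than in R175H P72 cells. SLC25A1, the mitochondrial citrate carrier, IDH3G, a subunit of the mitochondrial NAD-dependent isocitrate dehydrogenase, and CS, citrate synthase, were 1.505-fold, 1.52-fold and 1.22-fold lower. In all, 6 of the 34 members fell and 0 rose at an adjusted p under 0.05 (edgeR's quasi-likelihood test with Benjamini-Hochberg adjustment over all genes tested). That is 17.6% of the members, all of them lower, against 14.6% of all genes tested, 7.6% called lower and 6.95% higher. The median log2 fold change was -0.12 over the members and 0.00 over all genes tested. By role, the calls were on 4 of the 8 genes of citrate and isocitrate, 1 of the 5 regulators of pyruvate dehydrogenase, 1 of the 7 genes between 2-oxoglutarate and oxaloacetate, and 0 of the 8 genes of pyruvate entry and 0 of the 6 enzymes of malate, glutamate and aspartate. An unadjusted p under 0.05 was reached by 10 members, 9 of them lower and OGDH higher, which is 29.4% against 27.77% of all genes tested. VIM, KRT8, KRT18 and CDH2 together also differed between these groups, at 2177 to 2308.5 CPM in R273H P72 cells, against 2664 to 3114 CPM in R175H P72 cells. Of these, VIM was lower in R273H P72 cells, at 755 to 1088 CPM, against 1423 to 1827 CPM in R175H P72 cells. KRT8 was also lower, at 240.9 to 274.2 CPM, against 277.2 to 300.4 CPM in R175H P72 cells. CDH2 was higher, at 159 to 184 CPM, against 111 to 130.1 CPM in R175H P72 cells. KRT18 overlapped, at 806 to 1043 CPM in R273H P72 cells and 804 to 866 CPM in R175H P72 cells. These CPM are not adjusted for batch. Of all genes tested, 14.1% were lower and 14.0% higher without overlap between these groups. The part of these markers in the members' differences was not tested.

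**Figure D1:**
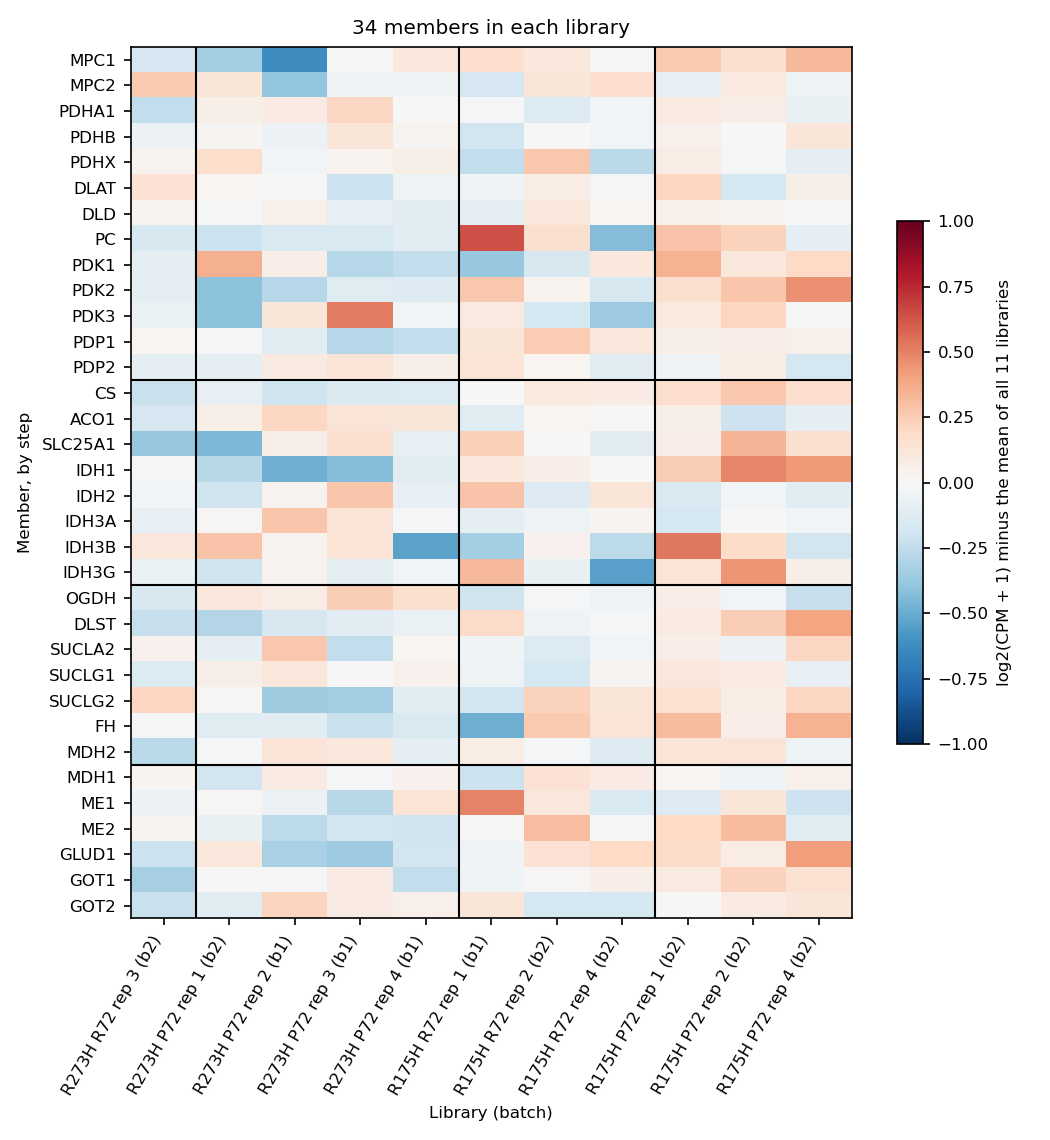
Each row is 1 of the 34 members, ordered by role, and each column is 1 of the 11 libraries. Colour gives log2(CPM + 1) minus the member's mean over all libraries, red for higher and blue for lower, with black lines between groups and between roles. The rows of PDK2, IDH1, CS and DLST are blue in all 4 R273H P72 libraries and red in all 3 R175H P72 libraries, while rows such as DLD, which stayed between 50.2 and 59.0 CPM, are pale throughout.

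IDH1, PDK2 and DLST varied together over the 11 libraries. After the mean of each batch was removed, Pearson's r of log2(CPM + 1) was 0.93 between IDH1 and PDK2, 0.94 between PDK2 and DLST, and 0.91 between IDH1 and DLST. This was not particular to these 3: r was 0.90 between SLC25A1 and CS and 0.86 between SLC25A1 and DLST. The lowest r among the called members was 0.54, between IDH3G and CS. The called members were all picked for the same group difference, which enters each r. These are descriptions over libraries that share the same group differences, batches and depths. The stretches before RefSeq starts of IDH1, PDK2 and DLST (GRCh38.p14, 250 bases each, 5′ to 3′ on the gene's strand) are shown, with capitals for matches to short motifs of promoters. The windows are chr2:208255072-208255321 on the minus strand for IDH1, chr17:50095101-50095350 on the plus strand for PDK2, and chr14:74881666-74881915 on the plus strand for DLST.
IDH1: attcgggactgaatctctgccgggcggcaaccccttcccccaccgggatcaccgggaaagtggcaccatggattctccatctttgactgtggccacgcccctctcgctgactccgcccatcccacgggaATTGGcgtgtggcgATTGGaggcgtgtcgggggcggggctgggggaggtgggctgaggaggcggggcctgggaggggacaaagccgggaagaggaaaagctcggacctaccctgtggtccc
PDK2: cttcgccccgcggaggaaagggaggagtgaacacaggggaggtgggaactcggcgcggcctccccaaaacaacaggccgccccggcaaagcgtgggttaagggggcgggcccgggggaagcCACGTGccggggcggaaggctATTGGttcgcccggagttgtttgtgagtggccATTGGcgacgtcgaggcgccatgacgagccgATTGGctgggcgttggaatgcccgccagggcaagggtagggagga
DLST: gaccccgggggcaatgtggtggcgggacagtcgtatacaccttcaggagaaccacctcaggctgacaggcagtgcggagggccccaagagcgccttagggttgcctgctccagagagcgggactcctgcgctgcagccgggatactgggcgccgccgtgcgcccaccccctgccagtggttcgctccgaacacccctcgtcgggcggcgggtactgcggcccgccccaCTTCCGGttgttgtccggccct
The IDH1 window held the CCAAT box, read here on the other strand as ATTGG, at positions -121 and -107 from the start. The PDK2 window held an E-box, CACGTG, and ATTGG 3 times, and the DLST window held an ETS-type motif, CTTCCGG, and no CCAAT box. The second RefSeq start of IDH1 and the other 2 of PDK2 had no match before them. The motifs searched on both strands, which do not contain one another, were the NRF1-type motif, AAGGTCA (bound by oestrogen-related receptors), CCGGAAG (ETS-type), CACGTG and CCAAT. RefSeq promoters were found for 32 of the 34 members, with 43 windows in all. CCAAT stood in 48.8% of these windows, against 32.0% of all 35116 windows of the same length, the NRF1-type motif in 11.6% against 5.07%, CCGGAAG in 11.6% against 8.52%, CACGTG in 6.98% against 6.34%, and AAGGTCA in 2.33% against 3.44%. A match of letters does not show that a factor binds there. Counted by gene, 20 of the 32 members with a promoter held a CCAAT box, and 5 of the 6 called members are among these 20. The share by gene over all genes was not counted, and genes with several windows, such as IDH1 and PDK2, have more chances of a match. Whether called members differ from the others in this was not tested.

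IDH1 (ENSG00000138413, hg38 chromosome 2, 208236227 to 208266074, minus strand) makes NADPH as it converts isocitrate to 2-oxoglutarate in the cytosol and peroxisome. It was measured at 59.6, 51.4, 53.4 and 66.9 CPM in R273H P72 replicates 1 to 4, against 86.0, 102 and 97.4 CPM in R175H P72 replicates 1, 2 and 4. Every R273H P72 library lay below every R175H P72 library. The log2 fold change was -0.72 (SE 0.12, edgeR adjusted p = 0.000376). R273H P72 cells averaged 57.8 ± 6.99 CPM (SD, n = 4) and R175H P72 cells 95.0 ± 8.10 CPM (SD, n = 3). The 3 R175H R72 libraries, at 78.1, 75.6 and 72.02 CPM, and the R273H R72 library, at 71.8 CPM, lay between these groups.

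PDK2 (ENSG00000005882, chromosome 17, 50094737 to 50112152, plus strand) phosphorylates and thereby inhibits pyruvate dehydrogenase. It stood at 23.1, 25.2, 28.4 and 28.3 CPM in R273H P72 cells, against 34.8, 37.7 and 42.8 CPM in R175H P72 cells, with no overlap. Its log2 fold change was -0.77 (SE 0.13, edgeR adjusted p = 0.000482). The R273H R72 library, at 29.02 CPM, lay just above the R273H P72 libraries, and R175H R72 cells spread widely at 37.5, 31.8 and 27.6 CPM.

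The other regulators of the complex did not pass the test. PDP1, a phosphatase that reactivates the complex, was at 88.4, 82.3, 73.0 and 75.0 CPM in R273H P72 cells and at 92.9, 93.5 and 92.4 CPM in R175H P72 cells. These groups did not overlap, and the log2 fold change with batch in the model was -0.12 (SE 0.10, edgeR adjusted p = 0.458). PDK1, a kinase induced by hypoxia in many cells, PDK3, a further kinase, and PDP2, a further phosphatase, had log2 fold changes of 0.10 (SE 0.18), -0.63 (SE 0.39) and -0.05 (SE 0.11). PDK3 rested on 13 to 33 counts per library and had the largest SE of the 34 members here.

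Pyruvate entry held 2 members near the threshold. MPC1, a subunit of the mitochondrial pyruvate carrier, was at 4.74, 3.75, 6.34 and 6.87 CPM in R273H P72 cells, against 7.76, 7.16 and 8.16 CPM in R175H P72 cells, and PC, pyruvate carboxylase, which makes oxaloacetate from pyruvate, was at 4.90, 5.16, 5.19 and 5.39 CPM in R273H P72 cells, against 7.36, 7.07 and 5.41 CPM in R175H P72 cells. Neither pair of groups overlapped, although for PC the highest R273H P72 and the lowest R175H P72 library nearly met. The log2 fold changes were -0.65 (SE 0.25, edgeR adjusted p = 0.0846) for MPC1 and -0.69 (SE 0.26, edgeR adjusted p = 0.0823) for PC. They rested on 32 to 92 and on 34 to 83 counts per library. The other carrier subunit, MPC2, had a log2 fold change of 0.15 (SE 0.16). The subunits of the pyruvate dehydrogenase complex itself lay close to 0: PDHA1 and PDHB of its first enzyme at 0.03 (SE 0.10) and 0.03 (SE 0.11), DLAT, the second, at -0.03 (SE 0.13), DLD, the third, at 0.01 (SE 0.10), and PDHX, which tethers DLD to the core, at 0.24 (SE 0.16). DLD, which 2-oxoglutarate dehydrogenase also uses, varied least of the 34, with its highest library 1.17 times its lowest.

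CS (ENSG00000062485, chromosome 12, 56271699 to 56300392, minus strand) joins acetyl-CoA and oxaloacetate. It was at 75.7, 69.7, 72.4 and 72.6 CPM in R273H P72 cells, against 90.1, 96.9 and 90.0 CPM in R175H P72 cells, and the groups did not overlap. The log2 fold change was -0.28 (SE 0.09, edgeR adjusted p = 0.0463), just under the threshold. The call held under 6 of 21 alternative settings, and the log2 fold change stayed between -0.35 and -0.25 throughout. R175H R72 cells were in between at 80.2, 85.9 and 84.9 CPM, and the R273H R72 library was the lowest of all at 68.6 CPM.

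SLC25A1 (ENSG00000100075, chromosome 22, 19175575 to 19178830, minus strand) exports citrate from the mitochondrion for lipid synthesis. It was at 19.7, 28.3, 30.5 and 25.6 CPM in R273H P72 cells, against 28.4, 34.6 and 30.5 CPM in R175H P72 cells, so that these groups overlapped. The R273H P72 library of batch b2 was the lowest of the 4, and the log2 fold change with batch in the model was -0.59 (SE 0.14, edgeR adjusted p = 0.00574). Without the batch term it was -0.27 (edgeR adjusted p = 0.206), and with a correction for GC content near the transcripts' 3′ ends (last 500 nt) it was -0.27 (edgeR adjusted p = 0.218). Without R273H P72 replicate 1 it was -0.45 (edgeR adjusted p = 0.209). SLC25A1 was higher in batch b1 by 0.41 on the log2 scale (edgeR adjusted p = 0.0306 for the batch term), and 66.7% of the last 500 nt of its transcripts were G or C, the highest share among the members.

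IDH3G (ENSG00000067829, chromosome X, 153785766 to 153794523, minus strand) was at 13.4, 16.0, 14.5 and 15.2 CPM in R273H P72 cells, against 17.1, 21.5 and 16.2 CPM in R175H P72 cells. The groups did not overlap, although the highest R273H P72 library nearly reached the lowest R175H P72 library. The log2 fold change was -0.61 (SE 0.18, edgeR adjusted p = 0.0282), and it lost its call without the batch term (-0.31), with GC correction (-0.48), in batch b2 alone (-0.45), and without R175H P72 replicate 2 or R175H R72 replicate 1. Exons of IDH3G, which had 1739 counts over the 11 libraries, overlap those of SSR4 on the opposite strand, which had 19809. The labels do not say whether strand was used in counting, so reads from this pair may have been mixed. The other subunits of the same enzyme, IDH3A and IDH3B, had log2 fold changes of 0.14 (SE 0.14) and 0.06 (SE 0.28). IDH2, the mitochondrial NADP-dependent counterpart of IDH1, was at -0.11 (SE 0.16), and ACO1, the cytosolic aconitase that also acts as an iron-responsive regulator of mRNAs, was at 0.21 (SE 0.11, edgeR adjusted p = 0.196).

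**Figure D2:**
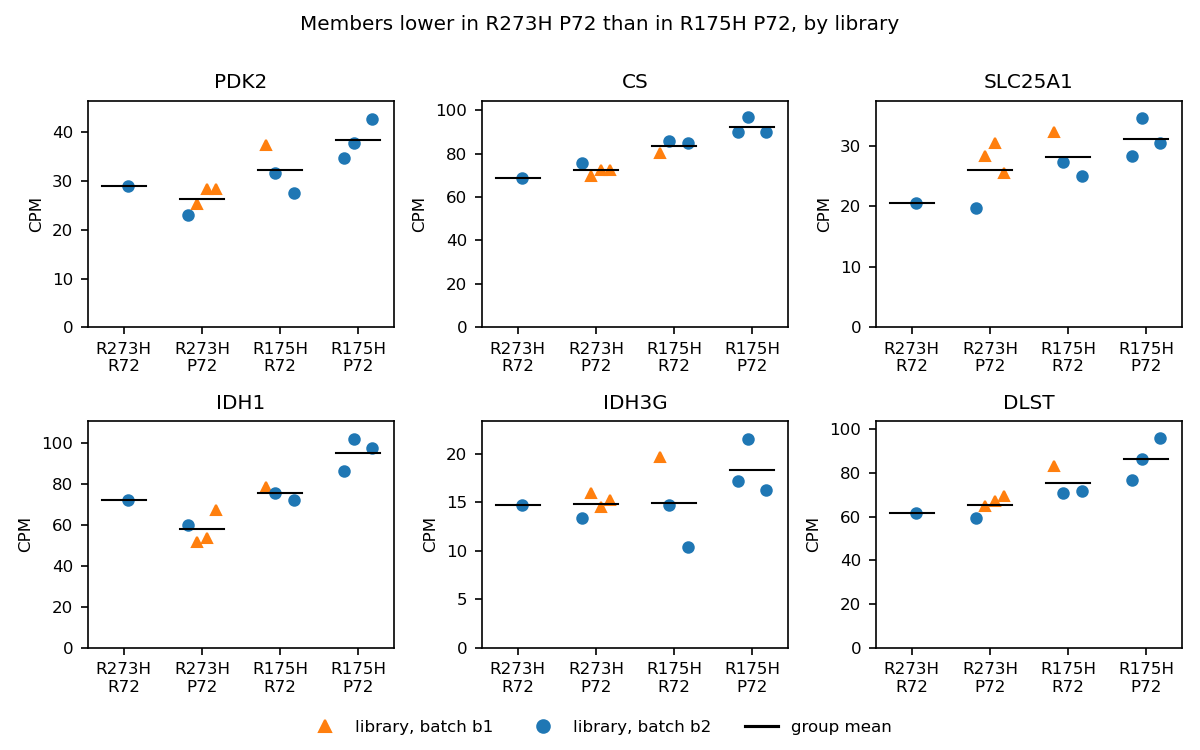
CPM of the 6 members called between R273H P72 and R175H P72 cells, 1 panel each with its own axis from 0. Points are libraries, triangles for batch b1 and circles for batch b2, and lines are group means. In the panels of PDK2, CS, IDH1, IDH3G and DLST every R273H P72 point lies below every R175H P72 point, and in that of SLC25A1 they overlap between 28.4 and 30.5 CPM.

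DLST (ENSG00000119689, chromosome 14, 74881891 to 74903745, plus strand) transfers the succinyl group to coenzyme A. It was at 59.3, 65.0, 67.1 and 69.5 CPM in R273H P72 cells, against 77.0, 86.6 and 96.0 CPM in R175H P72 cells, with no overlap. The log2 fold change was -0.56 (SE 0.11, edgeR adjusted p = 0.0012). The catalytic subunit of the same complex, OGDH, pointed the other way, at 63.8, 62.5, 70.6 and 66.5 CPM in R273H P72 cells, against 62.2, 58.1 and 50.5 CPM in R175H P72 cells. It was the one member whose R273H P72 libraries all lay above the R175H P72 libraries, and its log2 fold change of 0.24 (SE 0.11, edgeR adjusted p = 0.164) did not pass. The subunits of succinyl-CoA ligase, SUCLG1, SUCLG2 and SUCLA2, had log2 fold changes of 0.01 (SE 0.10), -0.10 (SE 0.11) and -0.19 (SE 0.31), and MDH2, mitochondrial malate dehydrogenase, one of -0.11 (SE 0.10).

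FH, which hydrates fumarate to malate, was at 42.1, 42.3, 39.1 and 41.2 CPM in R273H P72 cells, against 57.6, 48.1 and 58.8 CPM in R175H P72 cells. The groups did not overlap, but the log2 fold change was -0.16 (SE 0.14, edgeR adjusted p = 0.508). In R175H R72 cells the b1 library had 32.5 CPM and the b2 libraries 55.2 and 50.2 CPM. The batch term rests on these R175H R72 libraries and on R273H P72, the groups present in both batches, and each of them has 1 library in 1 of the batches.

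Among the enzymes of malate, glutamate and aspartate, GOT2, the mitochondrial aspartate aminotransferase, had the smallest p. It was at 82.5, 104, 94.6 and 92.6 CPM in R273H P72 cells, against 89.3, 94.8 and 97.2 CPM in R175H P72 cells, which overlapped. Its log2 fold change was -0.21 (SE 0.10, edgeR adjusted p = 0.162) with the batch term and -0.01 without it. GLUD1, glutamate dehydrogenase, through which glutamate carbon enters as 2-oxoglutarate, was at 68.4, 50.6, 49.3 and 55.9 CPM in R273H P72 cells, against 72.2, 67.1 and 85.1 CPM in R175H P72 cells, with a log2 fold change of -0.19 (SE 0.11, edgeR adjusted p = 0.297). Without the batch term it was called at -0.41 (edgeR adjusted p = 0.0271). GOT1, the cytosolic aminotransferase, did not overlap, at 156, 154, 164 and 131 CPM in R273H P72 cells against 166, 183 and 173 CPM in R175H P72 cells, and had -0.15 (SE 0.10, edgeR adjusted p = 0.38). MDH1, ME1 and ME2, a malate dehydrogenase and 2 malic enzymes, had log2 fold changes of 0.00 (SE 0.12), -0.13 (SE 0.30) and -0.22 (SE 0.15).

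**Figure D3:**
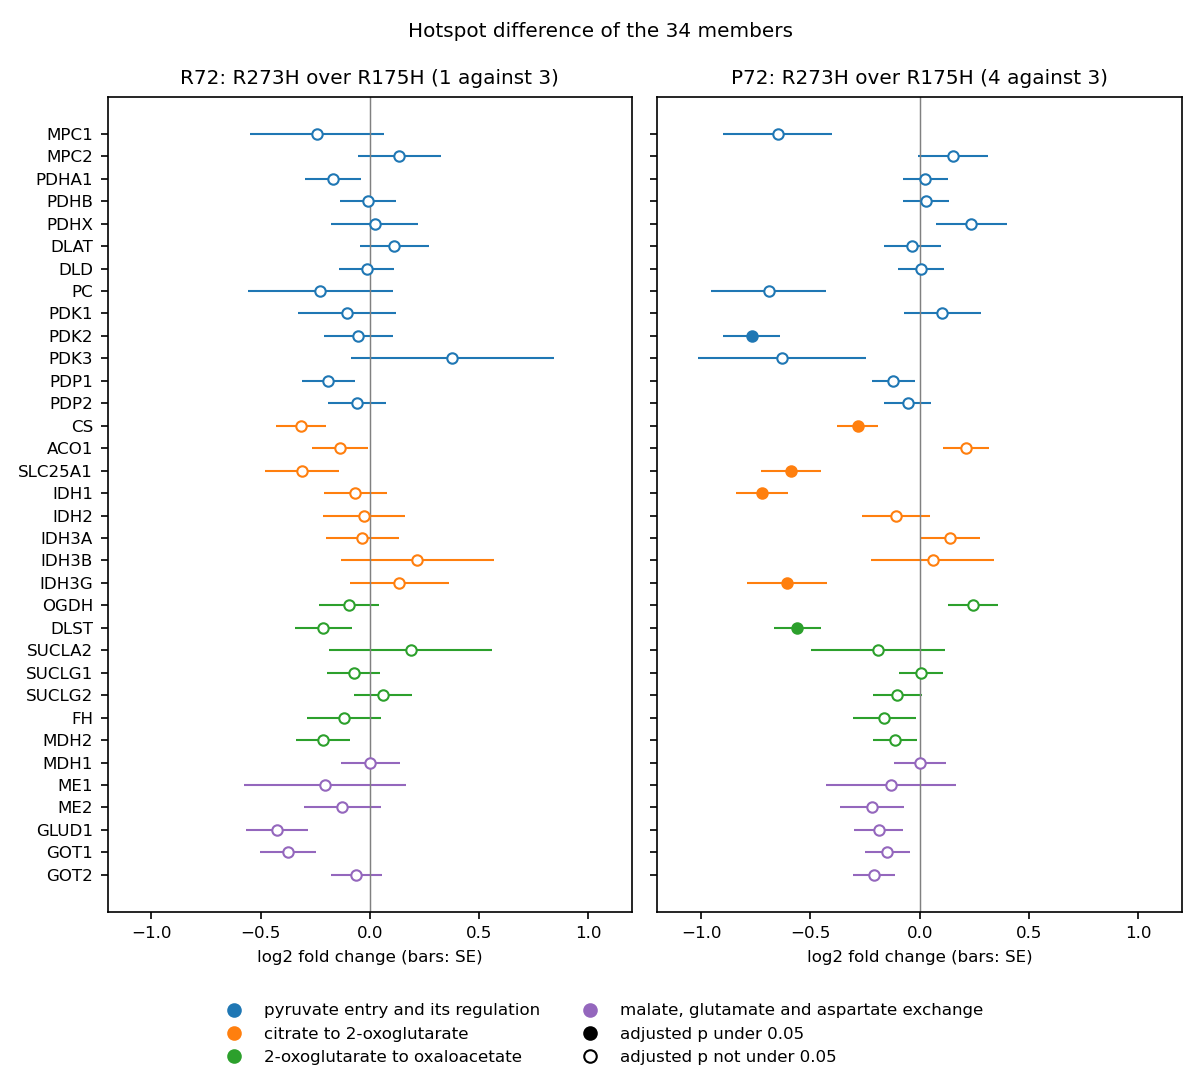
Log2 fold changes of R273H over R175H for the 34 members, on R72 (left, 1 library against 3) and on P72 (right, 4 against 3), coloured by role. Bars are the SE and filled points have an edgeR adjusted p under 0.05. On P72 the 6 filled points lie between -0.77 and -0.28, and on R72 no point is filled.

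Counting libraries without a model, 11 members (32.4%) had every R273H P72 library below every R175H P72 library and 1 (2.94%) had every one above. Of all genes tested, 14.1% were lower and 14.0% higher in this sense. The 11 were MPC1, PC, PDK2, PDP1, CS, IDH1, IDH3G, DLST, SUCLG2, FH and GOT1. Since 3 of the 4 R273H P72 libraries and none of the R175H P72 libraries were of batch b1, this count mixes group and batch. In batch b2 alone, where R273H P72 replicate 1 stands against the 3 R175H P72 libraries, the log2 fold changes were -0.68 for IDH1, -0.74 for PDK2, -0.55 for DLST, -0.67 for SLC25A1, -0.45 for IDH3G and -0.29 for CS. In this fit R273H P72 is 1 library, taken to vary like the R175H libraries, so its calls (IDH1, PDK2, DLST and SLC25A1) have no replicate check within R273H P72. Batch b1 held no R175H P72 library and gave no value of its own.

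**Figure D4:**
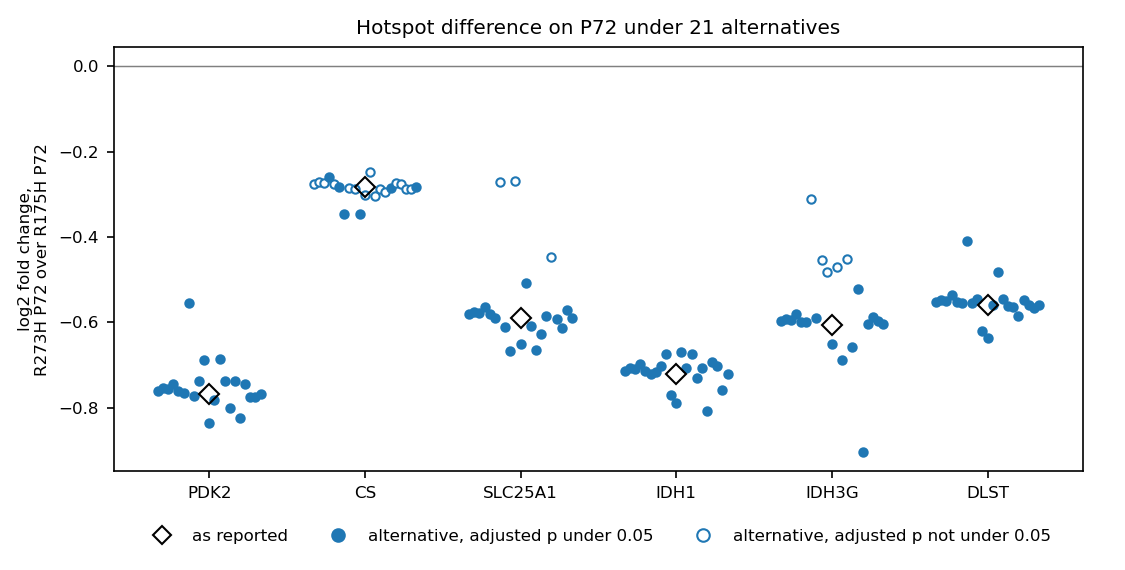
Log2 fold change of R273H P72 over R175H P72 for the 6 called members as reported (diamonds) and under 21 alternative settings (circles, filled where the adjusted p was under 0.05). IDH1, PDK2 and DLST are filled throughout, SLC25A1 under 18, IDH3G under 16 and CS under 6 settings, and every point lies below 0.

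R72 was set against P72 on R175H with 3 libraries each. No member passed the test, while 1.13% of all genes tested did, 0.319% as higher and 0.815% as lower. That count of all genes split into 52 higher and 133 lower with TMM scaling and into 65 higher and 105 lower with library totals. At an unadjusted p under 0.05 there were 6 members, all lower, which is 17.6% against 13.62% of all genes tested. DESeq2 and limma-voom also called 0 members, and without the filter on low counts edgeR called IDH1. The median log2 fold change was -0.11 over the members and 0.00 over all genes tested. The smallest p of each role belonged to IDH1, PDK2, DLST and GOT2.

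IDH1 was at 78.1, 75.6 and 72.02 CPM in R175H R72 cells, against 86.0, 102 and 97.4 CPM in R175H P72 cells. The groups did not overlap, and the log2 fold change was -0.34 (SE 0.10, edgeR adjusted p = 0.119). DLST was at 83.2, 70.9 and 71.7 CPM in R175H R72 cells, against 77.0, 86.6 and 96.0 CPM in R175H P72 cells, and PDK2 at 37.5, 31.8 and 27.6 CPM in R175H R72 cells, against 34.8, 37.7 and 42.8 CPM in R175H P72 cells. Both overlapped, and in both the b1 library of R175H R72 was the highest of its group. Their log2 fold changes were -0.27 (SE 0.09, edgeR adjusted p = 0.166) and -0.35 (SE 0.11, edgeR adjusted p = 0.138). GOT2, at 97.4, 79.0 and 78.9 CPM in R175H R72 cells against 89.3, 94.8 and 97.2 CPM in R175H P72 cells, showed the same arrangement, with -0.24 (SE 0.09, edgeR adjusted p = 0.200).

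In batch b2 alone, with 2 R175H R72 libraries, these 4 members had -0.36, -0.28, -0.37 and -0.25 in the order IDH1, DLST, PDK2 and GOT2, with edgeR adjusted p between 0.111 and 0.267. Without overlap were PDHB, CS, IDH1 and GOT1, lower in R175H R72 cells (11.8% of members, against 6.15% of all genes tested), and PDP1, higher (2.94%, against 6.81%). The R175H P72 libraries served as the denominator here and in the hotspot comparison on P72. For IDH1, PDK2 and DLST the log2 fold changes against these shared libraries were -0.34, -0.35 and -0.27 in R175H R72 cells and -0.72, -0.77 and -0.56 in R273H P72 cells.

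R72 was set against P72 on R273H with 1 library against 4, and the lone library was taken to vary like those of the other groups. Of the members 0 passed, and of all genes tested 0.0%. DESeq2 and limma-voom called no member either, and 5 members had an unadjusted p under 0.05 (14.7%, against 7.749% of all genes tested), 4 of them lower. The smallest p of each role belonged to GOT1, OGDH, PDHA1 and ACO1. GOT1 was at 123 CPM in the R273H R72 library, against 156, 154, 164 and 131 CPM in R273H P72 cells, with a log2 fold change of -0.35 (SE 0.14, edgeR adjusted p = 0.514). OGDH was at 53.002 CPM in the R273H R72 library, against 63.8, 62.5, 70.6 and 66.5 CPM in R273H P72 cells, with -0.34 (SE 0.15, edgeR adjusted p = 0.591). In both the R273H R72 library lay below all 4 R273H P72 libraries. The R273H R72 library was of batch b2, and of the R273H P72 libraries only replicate 1 was. Positions of single libraries in this comparison thus mix group and batch, while the log2 fold changes have batch in the model.

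PDHA1 was at 56.5 CPM in the R273H R72 library, against 70.1, 71.2, 77.6 and 67.3 CPM in R273H P72 cells, with -0.30 (SE 0.14, edgeR adjusted p = 0.615). ACO1 was at 74.2 CPM in the R273H R72 library, against 86.7, 96.5, 91.1 and 90.9 CPM in R273H P72 cells, with -0.30 (SE 0.14, edgeR adjusted p = 0.621). The fifth member was PDK2, at 29.02 CPM in the R273H R72 library and at most 28.4 CPM in R273H P72 cells, with 0.36 (SE 0.17, edgeR adjusted p = 0.631).

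**Figure D5:**
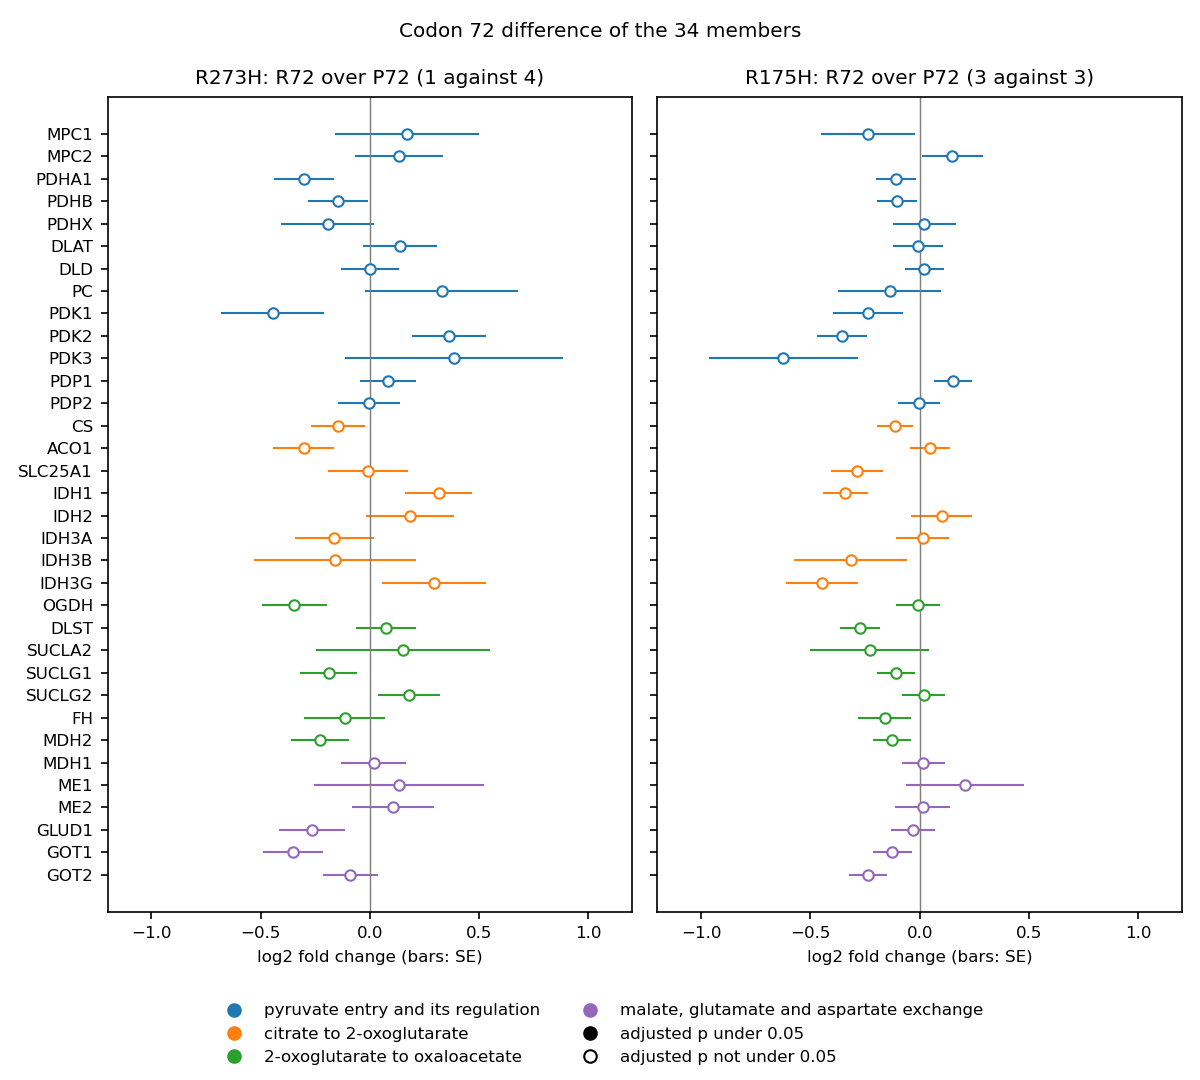
Log2 fold changes of R72 over P72 for the 34 members, on R273H (left, 1 library against 4) and on R175H (right, 3 against 3), with the SE as bars and colours by role. No point is filled, since no member had an edgeR adjusted p under 0.05, and IDH1 lies at 0.32 on R273H and at -0.34 on R175H.

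R273H was set against R175H on R72 with 1 library against 3. Of the 34 members 0 passed, against 0.0429% of all genes tested, 0.00613% as higher and 0.0368% as lower. DESeq2 and limma-voom called no member either, and 3 members, all lower, had an unadjusted p under 0.05 (8.82%, against 4.619% of all genes tested). GLUD1 was at 54.6 CPM in the R273H R72 library, against 61.7, 70.2 and 73.2 CPM in R175H R72 cells, with a log2 fold change of -0.43 (SE 0.14, edgeR adjusted p = 1.0). CS was at 68.6 CPM in the R273H R72 library, against 80.2, 85.9 and 84.9 CPM in R175H R72 cells, with -0.31 (SE 0.12, edgeR adjusted p = 1.0). In both the R273H R72 library was below the R175H R72 libraries.

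GOT1, the third member with an unadjusted p under 0.05, had -0.37 (SE 0.13). MDH2, at 362 CPM in the R273H R72 library against 458, 433 and 399 CPM in R175H R72 cells, had -0.21 (SE 0.12), and PDP1, at 90.6 CPM in the R273H R72 library against 97.4, 107 and 96.1 CPM in R175H R72 cells, had -0.19 (SE 0.12), both with an edgeR adjusted p of 1.0. IDH1, PDK2 and DLST, called on P72, had log2 fold changes of -0.07 (SE 0.14), -0.05 (SE 0.16) and -0.21 (SE 0.13) on R72.

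Whether the R72 effect differs between the hotspot mutants, which is also whether the hotspot effect differs between R72 and P72, was tested as an interaction. By edgeR 0 members passed, against 0.0306% of all genes tested, 0.0123% as higher and 0.0184% as lower, and DESeq2 and limma-voom called 0 members too. With an unadjusted p under 0.05 there were 3 members, 8.82% against 10.22% of all genes tested. IDH1 had a difference of 0.66 (SE 0.20, edgeR adjusted p = 0.225), PDK2 one of 0.72 (SE 0.22, edgeR adjusted p = 0.229) and IDH3G one of 0.74 (SE 0.31, edgeR adjusted p = 0.414), each on the log2 scale as the R72 effect on R273H minus that on R175H. DLST and GOT1 had 0.35 (SE 0.18, edgeR adjusted p = 0.523) and -0.23 (SE 0.17, edgeR adjusted p = 0.732). The test rests on the single R273H R72 library.

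The neighbouring steps were described with 37 further genes of the pathway, of which 33 had enough counts. Between R273H P72 and R175H P72 cells 6 were called higher and 3 lower, against 6.95% and 7.6% of all genes tested. These counts were 7 and 3 by DESeq2, among other settings. They were 2 and 1 without R273H P72 replicate 1, 4 and 1 with GC correction, and 4 and 1 without R175H P72 replicate 2. Calls over all genes tested also fell, from 1135 higher and 1241 lower to 544 and 709 without R273H P72 replicate 1. They were 961 and 1227 with GC correction, and 754 and 858 without R175H P72 replicate 2. PDPR, the regulatory subunit of pyruvate dehydrogenase phosphatase, was at 247, 207, 249.5 and 220.3 CPM in R273H P72 cells, against 165, 143 and 118 CPM in R175H P72 cells, with a log2 fold change of 0.72 (SE 0.12, edgeR adjusted p = 0.000636). Its call was lost without R273H P72 replicate 1. It has near-identical copies in the genome whose reads may have been shared with it. SLC16A1, which carries lactate and pyruvate over the plasma membrane, was at 180.0, 218, 187 and 172 CPM in R273H P72 cells, against 135, 126 and 129.8 CPM in R175H P72 cells, with 0.58 (SE 0.11, edgeR adjusted p = 0.00144). PCK2, the mitochondrial enzyme that makes phosphoenolpyruvate from oxaloacetate, was at 40.7, 38.7, 42.0 and 38.7 CPM in R273H P72 cells, against 57.3, 58.4 and 51.8 CPM in R175H P72 cells, with -0.64 (SE 0.12, edgeR adjusted p = 0.00151). None of these 3 overlapped between the groups, and PCK2 lost its call in batch b2 alone.

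The amino acid transporters SLC38A2 and SLC38A1, ACLY, which cleaves exported citrate to acetyl-CoA, and DHTKD1, a relative of OGDH in lysine breakdown, were also called higher in R273H P72 cells, by 0.52, 0.34, 0.37 and 0.41 on the log2 scale. DHTKD1 was just under the threshold (edgeR adjusted p = 0.0459). SLC38A1 and DHTKD1 lost their calls with GC correction, with the replicate block and without R273H P72 replicate 1, among other settings. ACLY lost its call without the batch term, in batch b2 alone and without R273H P72 replicate 1. SLC25A10, the dicarboxylate carrier, and D2HGDH, which oxidises D-2-hydroxyglutarate, were called lower, at -0.70 and -0.40, with overlapping groups. Both of these calls were lost without the batch term, with GC correction, in batch b2 alone, without R175H P72 replicate 2 and without R273H P72 replicate 1, and D2HGDH averaged 49.7 ± 8.24 CPM in R273H P72 cells (SD, n = 4) and 49.98 ± 2.31 CPM in R175H P72 cells (SD, n = 3). The same 2 genes were the only ones of the 33 called for R72 over P72 on R175H, at -0.80 (SE 0.16, edgeR adjusted p = 0.0123) and -0.53 (SE 0.10, edgeR adjusted p = 0.00726). Of all genes tested, 0.815% were called lower and 0.319% higher there. On R175H both calls were lost with GC correction, without the batch term and without R175H R72 replicate 2. That of SLC25A10 was also lost in batch b2 alone and without R175H P72 replicate 2. In the other 3 comparisons 0 of the 33 were called by edgeR, and DESeq2 called ACLY as lower in the R273H R72 library than in R273H P72 cells and in the interaction.

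The batch term itself was called for 4 of the 34 members and for 1504 genes in all. GOT2 and SLC25A1 were higher in batch b1, by 0.27 and 0.41 on the log2 scale, and GLUD1 and SUCLG2, a succinyl-CoA ligase subunit, were lower, at -0.31 and -0.33. The last 500 nt of the members' transcripts were 25.4% to 66.7% G or C, with a median of 43.2%, against 46.2% over all genes tested. Across the 34 members, which are not independent replicates, GC content and log2 fold change had a Pearson's r of -0.36 for R72 on R175H and -0.32 for the hotspot comparison on P72. The libraries' own slopes of log2 level on GC content ran from -0.084 to 0.071 per 10% GC. Their part in the members' differences was tested only through the GC correction, under which IDH1, PDK2, DLST and CS were called, at -0.77, -0.69, -0.62 and -0.35.

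Among genes averaging at least 10 CPM, those whose levels followed IDH1 most closely over the 11 libraries, after the batch mean was removed, were VPS52, ECH1 and FTH1, with Pearson's r of 0.982, 0.982 and 0.979. For PDK2 they were ARHGAP4, NTSR1 and MGAT4B, at 0.982, 0.981 and 0.978, and for DLST FAM129B, VAT1 and NOP10, at 0.974, 0.973 and 0.971. These are the highest of a large number of correlations over few libraries and carry no test. IDH1 has opposite-strand exon overlap with IDH1-AS1, counted 557 times against 8221 for IDH1 over all libraries, and PDK2 with SAMD14, counted 21 times. For DLST and SLC25A1 no gene with a count had exons overlapping theirs in GENCODE 29. Opposite-strand exon overlap was also found for GLUD1 with FAM35A, counted 5565 times against 7141 for GLUD1. PC overlapped LRFN4 in this way (1191 against 657 for PC), and DLD overlapped LAMB1 (9601 against 5994 for DLD). MPC2, SUCLA2 and further members had such overlaps too. Since no strand setting is stated, reads of these pairs may have been mixed. GLUD1 also has a near copy, GLUD2, which was counted 13 times in all.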

How the data were processed

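Messenger RNA of 11 H1299 libraries was read from its 3′ ends (Lexogen QuantSeq kit, NextSeq 500, 75 bp, single end), per the labels' protocols. The authors deposited 1 estimated count per gene and library, already in whole numbers. Bowtie2, RSEM 1.2.12 and DESeq2 on build hg38 are named, without order or settings, per the submitters' processing notes. RSEM shares out reads with several matches, and no strand setting is stated. Genes were placed with GENCODE 29 (hg38), and promoters came from RefSeq (GRCh38.p14).

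Counts were tested with edgeR 4.0.16 in R 4.3.3, by the robust quasi-likelihood method with TMM scaling (factors 0.979 to 1.03). filterByExpr (minimum count 10, minimum total 15) left 16324 genes. The model held 4 groups and batch over all 11 libraries. The threshold was a Benjamini-Hochberg adjusted p of 0.05 across the whole table, and the SE is the log2 fold change divided by the root of the F statistic. CPM are scaled by TMM. As alternatives, scaling was by RLE or by totals, the filter was dropped or set to 10 CPM in 3 libraries, DESeq2 1.42.0 or limma-voom (limma 3.58.1) was used, the batch term was dropped, replicate numbers entered as a block, batch b2 was fitted alone, GC content near the 3′ end (last 500 nt) was corrected per library with a spline of 5 degrees of freedom, and each library was left out in turn. The procedure was also run on simulated counts with known fold changes. These held no batch difference, so that run does not bear on how well batch was adjusted for. In the counts of all 12 replicate pairs differences exceeded sampling noise (chi-square over its degrees of freedom 4.01 to 18.3), and no library was treated as a duplicate.

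Named members are those called in a comparison and the one with the smallest p of each of 4 roles, with pyruvate entry and its regulators taken as 1 role; of the further pathway genes up to 3 called ones per comparison, those with the smallest p, are given in full. FH, MPC1, PC and others are named beside them as members chosen after their values were seen. The members, lists and alternatives were chosen with earlier results of these data known.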

Additional observations from a re-analysis of the deposited data

How the results depend on the processing

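The lower levels of IDH1, PDK2 and DLST in R273H P72 than in R175H P72 cells passed the test under all 21 alternatives, with log2 fold changes of -0.81 to -0.67, -0.84 to -0.55 and -0.64 to -0.41, and the number of members called there was 4 to 6 with 1 library left out. These 21 fits are not separate checks. Without R175H R72 replicate 1, batch b1 held only R273H P72 libraries. On the R273H P72 side the comparison then rested on replicate 1, as in batch b2 alone. Without R273H P72 replicate 1, the batch term rested on R175H R72 alone, which has 1 library of batch b1. Between R175H R72 and R175H P72 the correlations of same-numbered deviations were 0.00, -0.07 and 0.25 for replicates 1, 2 and 4. The replicate 1 pair was split between the batches. With batch also removed, R175H R72 replicate 4 matched best with its own number, and replicates 1 and 2 did not. These values do not settle whether replicate numbers pair the libraries. With the replicate block CS lost its call (edgeR adjusted p = 0.11) and no other member's call changed. Counts over all genes moved more, and the cause was not tested. For R72 on R175H 185 genes were called, with 564 and 1 member (IDH1) without the filter, 333 by DESeq2, 6 without the batch term, 81 with the replicate block, 57 with GC correction and 24 to 272 with 1 library left out, the lowest without R175H R72 replicate 2. For R72 on R273H 0 were called, with 137 without the filter, 112 by DESeq2, 2 by limma-voom, 2 with the block, 1 in batch b2 alone and 0 to 6 with 1 library left out. For the hotspot comparison on P72 2376 were called, with 866 in batch b2 alone and 1214 to 2463 with 1 library left out (1214 without R175H R72 replicate 1, 1253 without R273H P72 replicate 1). For the hotspot comparison on R72 7 were called, with 16 without the filter, 2 at 10 CPM in 3 libraries, 14 by DESeq2, 4 by limma-voom, 3 without the batch term, 2 with the block and 3 to 9 with 1 library left out. For the interaction 5 were called, with 196 without the filter, 138 by DESeq2, 12 by limma-voom, 1 without the batch term, 2 with the block, 1 with GC correction and 0 to 48 with 1 library left out. No alternative turned the direction of a named member that passed the test. Leaving out the lone R273H R72 library gives no value for the 3 comparisons that need it, and members with few counts, such as PDK3, SUCLA2 and ME1, allow only large differences to be seen.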
